A study of Mus musculus with 4 samples.

Results

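DNA replication genes encode the proteins that license origins, unwind the double helix, copy it and supply its building blocks. The 41 genes described here are the MCM and GINS helicase parts, the licensing factors, the primase and polymerases, the sliding clamp and its loader, the single-strand binding protein RPA, the enzymes that join Okazaki fragments, 4 enzymes of deoxynucleotide supply and 3 E2F transcription factors. They were chosen by name, with earlier results of these data known. Each of the 41 names was found once among the 34315 features of the deposited table. The messenger RNA came from haematopoietic stem cells (HSCs) of C57BL/6 mouse bone marrow, sorted freshly as SP-KSL-CD150+ cells. SP, side population, cells pump out a DNA-binding dye, KSL cells carry the progenitor markers Kit and Sca-1 without lineage markers, and CD150 is a surface marker of long-term stem cells. The wild-type group has 4 libraries, labelled technical replicates of 1 biological replicate, and is set beside HSCs labelled Dnmt3a-KO, lacking a de novo DNA methyltransferase, which enter only as the authors' mean count, log2 fold change and p-value per feature. The sources used here do not give the promoter or cell type behind the deletion, the age of the mice or any pooling.

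Before a cell divides, the origin recognition complex, CDC6 and CDT1 load the MCM2-7 ring onto DNA, and geminin blocks further loading once copying has begun. CDC45 and GINS then turn the ring into the active helicase, primase and polymerase alpha lay down primers, and polymerases epsilon and delta extend the strands with PCNA as the sliding clamp. Many of these genes are transcribed before and during S phase under E2F factors, so their messenger RNAs are low in resting cells, and most HSCs of adult marrow rest.

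Library totals ran from 40709659 to 47408552 counts, and each of the 41 genes had at least 686 reads in every wild-type library. Libraries 1 and 2 differed by little more than counting noise, with a median chi-square of 0.763 per feature where noise alone gives 0.455, as did libraries 3 and 4, with 0.682. Libraries 1 and 3 gave 13.0, so the group holds a pair of distinct measurements, each read from 2 libraries, and neither their spread nor any test stands for variation between mice. Stem cell markers were present, with Kit between 56135 and 65827 normalised counts in wild type. Their summed share of counts was 0.339% to 0.404% in wild type and 0.275% in the arm labelled knockout. Of the 10 markers 0 were called at an adjusted p under 0.05, against 3.7% lower and 3.15% higher of all features tested. Among so few genes this count does not show an unchanged level. Positive values stood for 7 of the 10 in the authors' deposited table, with a median log2 fold change of 0.33, and Procr, Ly6a and Slamf1 were 5.41-fold, 2.34-fold and 2.16-fold higher in that arm. Kit and Hlf, at -0.43 and -1.86 in the authors' deposited table, were among the 3 with negative values. Dnmt3a itself stood at 8229, 8569, 5400 and 5208 normalised counts in libraries 1 to 4 and at 8424 in that arm. The authors' deposited table gives it a log2 fold change of 0.30 (adjusted p 0.952), so its summed count was not lower under that label, and the arm is called by its label throughout.

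All 41 replication genes had a lower mean in the arm labelled knockout than in wild type, against 54.1% of all features tested with a negative log2 fold change and 46.4% of those with a mean of at least 500 normalised counts. In the authors' deposited table their log2 fold changes ran from -3.21 to -0.11 with a median of -1.64, which left a median of 32.1% of the wild-type level. The median over all 21778 features tested was -0.10, and it was 0.08 over the 10312 of them with a mean of at least 500 normalised counts. Of the 41, 35 were at least 2-fold lower, against 21.8% of all features tested and 11.6% of those with a mean of at least 500. Calls were made here from the p-values of the authors' deposited table, and a called gene is said to have fallen or risen. Of the 41, 5 were called lower at an adjusted p under 0.05 and 0 higher, while 3.7% of all features tested fell and 3.15% rose. The 5 are the thymidine kinase Tk1, the transcription factors E2f8 and E2f2, the replisome factor Mcm10 and the GINS subunit Gins1. The smallest fall among them was 6.14-fold and the largest difference that was not called was 5.42-fold, so that 30 genes lay at least 2-fold lower without a call. At an adjusted p under 0.1, 9 of the 41 are lower and 0 higher, against 5.13% and 4.25% of all features tested, and under 0.01, 1 is lower and 0 higher, against 1.78% and 1.75%. Among the features with a mean of at least 500, 1.4% fell and 2.82% rose at the threshold of 0.05. No knockout library was examined, so the spread within that arm is not shown here. Because the 41 genes were chosen with earlier results known, these shares are a description and the list was not tested as a set.

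**Figure D1:**
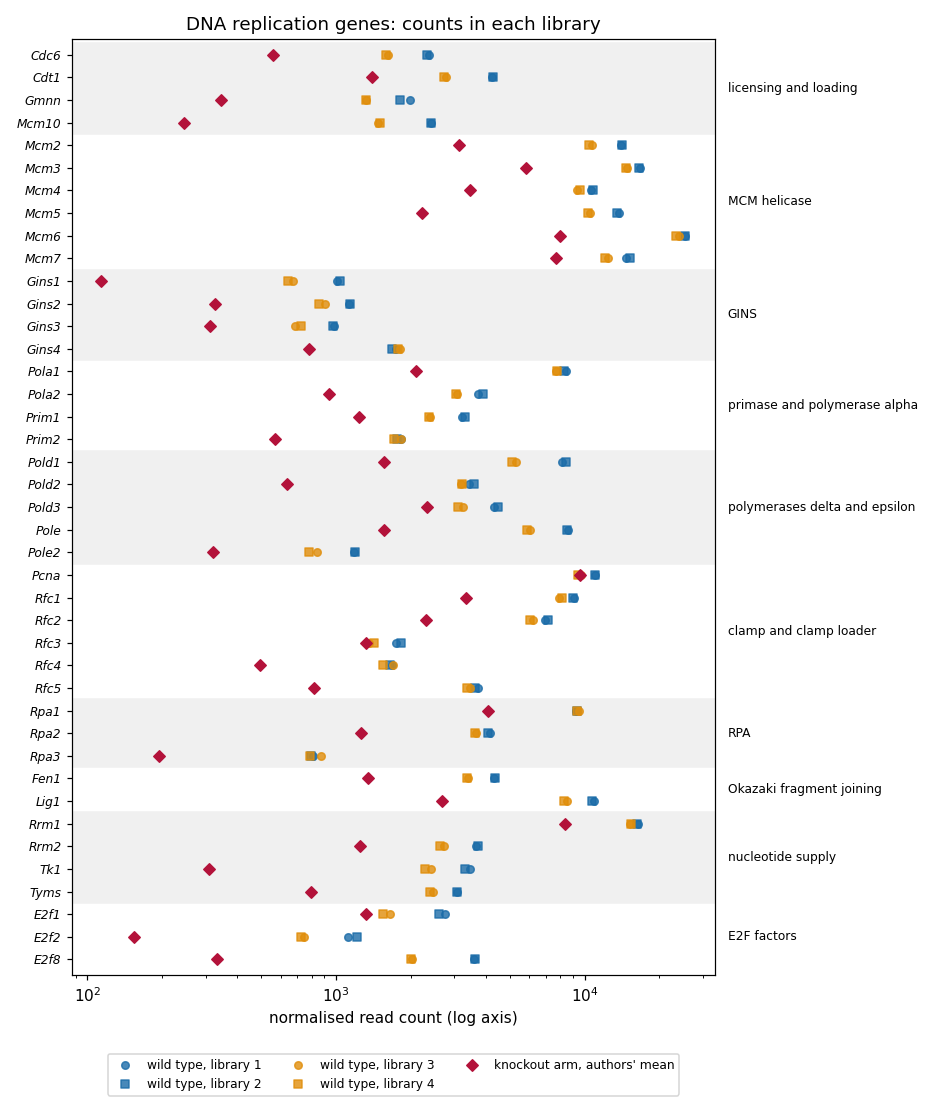
Normalised read counts (log axis) of the 41 replication genes in wild-type libraries 1 to 4 and in the arm labelled knockout, whose diamond is the authors' mean on the wild-type scale. The diamond lies to the left of all 4 wild-type libraries for 40 genes, and for Pcna it lies between the libraries.

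The authors' mean lay below all 4 wild-type libraries for 40 of the 41 genes, against 37.9% of all features tested. Together the 41 genes took 0.587%, 0.591%, 0.465% and 0.465% of the counts of libraries 1 to 4 and 0.155% of the mean counts of the arm labelled knockout. For library 1 the exact binomial 95% interval was 0.585% to 0.590%, which takes in counting error alone because PCR can copy 1 molecule many times. The share was thus lower in libraries 3 and 4 than in libraries 1 and 2, and the knockout share was lower still, by 3.01-fold against the lowest wild-type library. In bulk RNA, fewer cells that copy their DNA and less RNA per cell cannot be told apart.

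**Figure D2:**
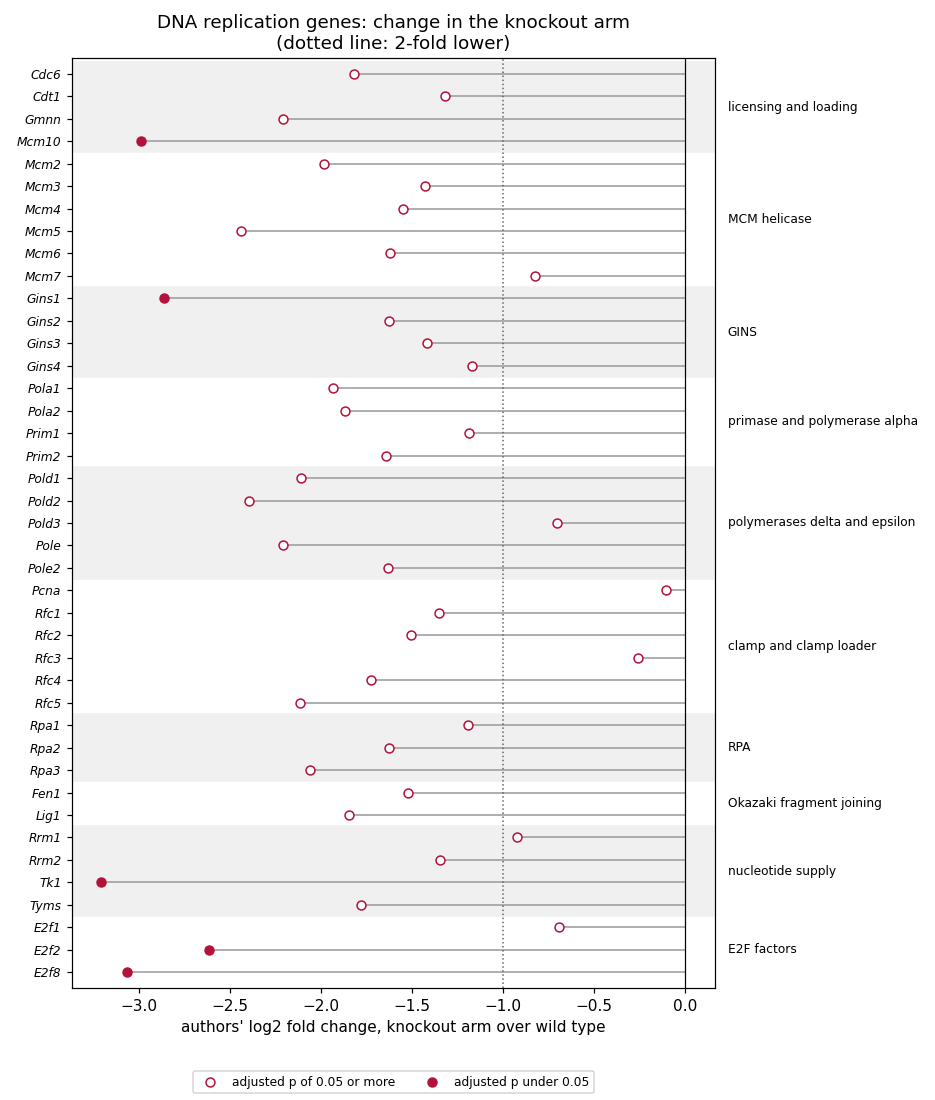
Log2 fold change of each of the 41 replication genes in the authors' deposited table, knockout arm over wild type, by role. Filled points mark the 5 genes with an adjusted p under 0.05, and the dotted line marks a 2-fold lower level.

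Many replication genes are known to be under E2F factors, so the promoters were read for the sites that these factors bind. Whether such sites go with the change in level was not tested. RefSeq gives a promoter of 250 bases before and 50 after the start for 33 of the 41 genes, in build GRCm38.p6, which is not the build of the counts. The letters TTTCCCGC, TTTGGCGC or TTTCGCGC, on either strand, occurred in 14 of the 33, or 42.4%. They occurred in 2.12% of the 27025 genes with a promoter, and in 4.65% of the 7070 with a mean of at least 500 normalised counts. Base composition was alike, with a median GC content of 60% in the replication promoters and 61.3% in those of the well-counted genes. A match is a description of letters and not of binding. The stretches below show the match in capitals for the 5 matched genes with the lowest log2 fold changes, and for Mcm6 and Rfc3, which were added after their values were seen, Mcm6 for its 3 matches and Rfc3 as a gene with 2 matches and a small difference in level. Mcm3 and Mcm7 also hold 2 matches each and are not shown. A gene with more than 1 start counts as matched where any of its promoters holds the letters.
E2f2, chr4:136172302-136172323, plus strand: gcggcatatagTTTGGCGCtaa
Mcm5, chr8:75109326-75109397, plus strand: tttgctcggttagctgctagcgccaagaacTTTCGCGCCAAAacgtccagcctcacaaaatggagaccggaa
Pold1, chr7:44548766-44548787, minus strand: cgtatcttgtgGCGGGAAAagc
Pola1, chrX:93632275-93632304, minus strand: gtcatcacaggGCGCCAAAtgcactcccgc
Lig1, chr7:13278841-13278870, plus strand: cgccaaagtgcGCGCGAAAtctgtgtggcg
Mcm6, chr1:128359715-128359845, minus strand: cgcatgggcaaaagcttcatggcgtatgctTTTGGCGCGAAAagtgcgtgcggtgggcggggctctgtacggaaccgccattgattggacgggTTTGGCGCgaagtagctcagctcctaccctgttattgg
Rfc3, chr5:151651200-151651229, minus strand: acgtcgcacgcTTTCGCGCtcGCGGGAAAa
In Mcm5 and in the first match of Mcm6, matches on opposite strands overlap and share letters. The 14 genes with a match had a median of -1.63 for the log2 fold change that the authors' deposited table gives, and the 19 with a promoter but no match had -1.73. Of the called genes, E2f2 held a match, Tk1, E2f8 and Mcm10 held none, and Gins1 has no entry among the promoters. Only these exact letters within these bases were sought. A promoter without a match may thus still hold an E2F site in another form or farther from the start. The CCAAT box, CCAAT on either strand, occurred in 60.6% of the 33 promoters and in 43.2% of those of the 7070 well-counted genes. The GC box, GGGCGG on either strand, occurred in 75.8% and 71.6%.

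The licensing genes and Mcm10 all had a lower mean in the arm labelled knockout. Mcm10, which helps to activate the loaded helicase (chromosome 2, 4911770 to 4933837 in mm9, the build of the counts), stood at 2423, 2415, 1480 and 1504 normalised counts in libraries 1 to 4 and at 244.9 in the arm labelled knockout. All 4 libraries lay far above that mean, although libraries 3 and 4 were below libraries 1 and 2. The authors' deposited table gives Mcm10 a log2 fold change of -2.99, a 7.95-fold fall (adjusted p 0.0150). Gmnn encodes geminin, the inhibitor of loading, and stood at 1980, 1815, 1321 and 1319 against 345.4, with a log2 fold change of -2.21 (adjusted p 0.0982) in the authors' deposited table. The loading factor Cdc6 stood at 2360, 2322, 1625 and 1587 against 559.3, at -1.82 (adjusted p 0.218) in the same authors' deposited table. Its partner Cdt1 had the smallest difference of the group, at 4244, 4271, 2768 and 2732 against 1403, with -1.32 (adjusted p 0.460) in the authors' deposited table. The means of the inhibitor and of the loaders lay below every wild-type library, and of these 4 genes Mcm10 alone passed the threshold.

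The 6 genes of the MCM2-7 ring were all lower and none was called. Mcm5 had the lowest log2 fold change, with 13716, 13458, 10504 and 10374 normalised counts in libraries 1 to 4 and 2213 in the arm labelled knockout. The authors' deposited table gives it -2.44 (adjusted p 0.0586), just outside the threshold. Mcm7 had the highest, with 14692, 15289, 12430 and 12085 against 7694, or -0.82 (adjusted p 0.741) in the authors' deposited table. For both genes the authors' knockout mean lay below all 4 wild-type libraries. Mcm2, Mcm6, Mcm4 and Mcm3 lay between them, at -1.98, -1.62, -1.55 and -1.43 in the authors' deposited table. The ring holds 1 copy of each protein, and the messenger RNAs were compared per kb of exon. The mean wild-type level per kb was highest for Mcm6 and lowest for Mcm4, 3.01-fold apart, and in the arm labelled knockout Mcm7 was highest and Mcm5 lowest, 4.97-fold apart. Mcm6 went from 8814 and 8202 normalised counts per kb in the wild-type pairs to 2758, Mcm7 from 6296 and 5148 to 3231, and Mcm5 from 3990 and 3066 to 650. Mcm6 had the highest level per kb of all 41 genes in wild type and ranked 3rd in the arm labelled knockout, where the clamp gene Pcna ranked 1st.

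GINS is a ring-binding complex of a single copy each of 4 subunits. Gins1 (chromosome 2, 150735330 to 150757016) stood at 1015, 1040, 672 and 644 normalised counts in libraries 1 to 4 and at 114.0 in the arm labelled knockout. It was lowest in that arm, and the wild-type libraries formed 2 levels above it. The authors' deposited table gives Gins1 a log2 fold change of -2.87, or 7.29-fold (adjusted p 0.0212). Gins4 had the smallest difference, with 1753, 1689, 1813 and 1781 against 780.8, at -1.17 (adjusted p 0.542) in the authors' deposited table, and its 4 wild-type libraries lay close together. Gins2 and Gins3 had -1.63 and -1.42 in the authors' deposited table, and Gins2 shares 118 bases of its position with Gse1. Per kb, the GINS genes were 3.72-fold apart in wild type and 5.82-fold apart in the arm labelled knockout.

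**Figure D3:**
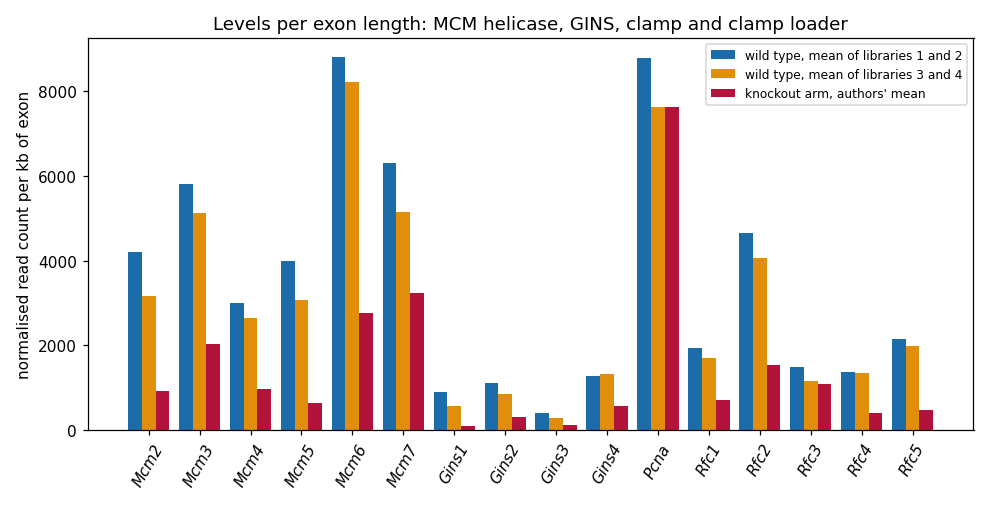
Normalised read count per kb of exon for the genes of the MCM helicase, GINS, the clamp and the clamp loader. Bars are the means of wild-type libraries 1 and 2, of wild-type libraries 3 and 4, and the authors' knockout mean; Pcna is at 7630 in the arm labelled knockout, beside 8792 and 7624 in wild type, while Mcm6 is at 2758.

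Primase and polymerase alpha make the short RNA-DNA primers. Their 4 genes lay between -1.93 and -1.19 in the authors' deposited table, and none was called. Pola1, the catalytic subunit, stood at 8409, 8298, 7704 and 7749 normalised counts against 2101 in the arm labelled knockout, or -1.93 (adjusted p 0.174) in the authors' deposited table. Prim1, the catalytic primase subunit, stood at 3211, 3322, 2391 and 2367 against 1237, the smallest difference of this group, at -1.19 (adjusted p 0.533) in the authors' deposited table. Pola2 and Prim2, the accessory subunits, had -1.87 and -1.65 in the authors' deposited table. For all 4 genes the knockout mean lay below every wild-type library.

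Polymerase delta extends mainly the lagging strand and polymerase epsilon the leading strand. Pold2, an accessory subunit of delta, had the lowest value of their 5 genes, with 3417, 3598, 3193 and 3207 normalised counts against 636.4. The authors' deposited table gives it a log2 fold change of -2.40 (adjusted p 0.0654), and its position shares 46 bases with Aebp1. Both catalytic subunits were lower by similar amounts: Pole stood at 8548, 8480, 6023 and 5869 against 1557, or -2.21 (adjusted p 0.0975), and Pold1 at 8147, 8444, 5316 and 5119 against 1562, or -2.11 (adjusted p 0.120), in the authors' deposited table. Pole2, which shares 247 bases with the antisense feature HAG_007956, had -1.64 in the authors' deposited table. Pold3, the delta subunit that also serves in break-induced repair, had the smallest difference, with 4339, 4469, 3244 and 3088 against 2318, or -0.71 (adjusted p 0.804) in the authors' deposited table.

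The sliding clamp gene had nearly the same level in the arm labelled knockout as in wild-type libraries 3 and 4. Pcna encircles DNA and tethers the polymerases, and also serves in DNA repair. It stood at 11001, 11048, 9686 and 9435 normalised counts in libraries 1 to 4 and at 9567 in the arm labelled knockout, a mean that lay between libraries 3 and 4. The authors' deposited table gives it a log2 fold change of -0.11 (adjusted p 0.995), the highest value of the 41. The pseudogenes Pcna-ps1 and Pcna-ps2, which resemble it, are features of their own in the counts, with Pcna-ps2 at 255, 253, 171 and 171 normalised counts in libraries 1 to 4 and Pcna-ps1 at 0 in every library, so reads may have been split between them, and the counting rule for such reads is not given. Among the 5 genes of the clamp loader, replication factor C, the lowest was Rfc5, with 3732, 3642, 3479 and 3384 against 819.4, or -2.12 (adjusted p 0.119) in the authors' deposited table. Rfc3 was the next highest value after Pcna, with 1738, 1828, 1358 and 1422 against 1324, or -0.26 (adjusted p 0.964) in the authors' deposited table. Its knockout mean lay just under library 3, the lowest of wild type. Rfc4, Rfc2 and Rfc1, the large subunit, had -1.73, -1.51 and -1.36 in the authors' deposited table, and Rfc4 shares 185 bases with Eif4a2. The loader genes of 1 complex thus spread over a range of -2.12 to -0.26.

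RPA coats single-stranded DNA at the fork. Rpa3, the smallest subunit, stood at 811, 795, 872 and 787 normalised counts against 194.1, and Rpa1, the largest, at 9245, 9367, 9487 and 9293 against 4091. Both had nearly level wild-type libraries and a knockout mean well below them. The authors' deposited table gives them -2.06 (adjusted p 0.136) and -1.19 (adjusted p 0.530), and Rpa2 had -1.63. Rpa2 shares 729 bases with the antisense feature HAG_029488. Okazaki fragments are trimmed by the nuclease FEN1 and sealed by DNA ligase 1. Lig1 stood at 10872, 10748, 8478 and 8271 against 2667, and Fen1 at 4330, 4371, 3398 and 3381 against 1346. The authors' deposited table gives -1.85 (adjusted p 0.206) for Lig1 and -1.52 (adjusted p 0.351) for Fen1, with Lig1 sharing 1409 bases with 6330408A02Rik.

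Among the genes of deoxynucleotide supply, Tk1 had the lowest value of all 41. Tk1 encodes the cytosolic thymidine kinase of the salvage pathway (chromosome 11, 117676833 to 117687328) and stood at 3466, 3299, 2416 and 2277 normalised counts in libraries 1 to 4 and at 308.8 in the arm labelled knockout. The lowest wild-type library was far above that mean. The authors' deposited table gives it a log2 fold change of -3.21, or 9.24-fold (adjusted p 0.00845), and 96 bases of its position are shared with Afmid. Tyms, thymidylate synthase of the de novo route, stood at 3057, 3077, 2453 and 2390 against 797.0, or -1.78 (adjusted p 0.233) in the authors' deposited table. Its pseudogene Tyms-ps is a feature of its own in the counts. Ribonucleotide reductase has a large subunit, Rrm1, and an S phase small subunit, Rrm2. Rrm1 had the smallest difference of the 4, with 16378, 16292, 15246 and 15347 against 8342, or -0.92 (adjusted p 0.687), and Rrm2 stood at 3668, 3741, 2731 and 2612 against 1252, or -1.35 (adjusted p 0.442), in the authors' deposited table. Per kb the large subunit was above the small one in every group, at 4106 and 3845 against 1707 and 1231 in the wild-type pairs and at 2097 against 577 in the arm labelled knockout.

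E2F factors were represented by 3 genes, of which 2 were called lower, against 3.7% of all features tested. With 3 genes chosen by name, this count is a description. E2f8, an atypical repressor that is itself an E2F target (chromosome 7, 56121799 to 56136411), stood at 3581, 3616, 2031 and 2000 normalised counts against 332.6 in the arm labelled knockout. E2f2, an activator (chromosome 4, 135728309 to 135751971), stood at 1123, 1220, 748 and 725 against 154.6. The knockout mean lay below every wild-type library for each, and both genes fell in the authors' deposited table, E2f8 by 8.39-fold (log2 -3.07, adjusted p 0.0122) and E2f2 by 6.14-fold (log2 -2.62, adjusted p 0.0390). E2f1, another activator, stood at 2747, 2603, 1655 and 1553 against 1323, or -0.69 (adjusted p 0.811) in the authors' deposited table. The knockout mean of E2f1 lay just under libraries 3 and 4. Against libraries 3 and 4 alone, the log2 ratio was -0.28 for E2f1, -2.25 for E2f2 and -2.60 for E2f8.

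Of another 10 E2F, dimerisation partner and retinoblastoma family genes, 0 were called in either direction. Of all features tested, 3.7% were called lower and 3.15% higher. The median log2 fold change of the 10 in the authors' deposited table was -0.05. E2f7, the other atypical repressor, stood at 1684, 1811, 1091 and 1071 normalised counts against 5008, a log2 fold change of 1.82 (adjusted p 0.215) in the authors' deposited table. Its sign was thus opposite to that of E2f8, though the difference between them was not tested. The pocket protein gene Rbl1 (p107), known as an E2F target, stood at 6873, 6907, 5269 and 5187 against 1658, or -1.87 (adjusted p 0.198) in the authors' deposited table.

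Of 45 other replication genes listed, 44 were found. In the authors' deposited table their median log2 fold change was -1.10, with 36 negative values. Of the 44, 1 fell, or 2.27%, and 0 rose, against 3.7% and 3.15% of all features tested. The one that fell was Timeless, of the fork protection complex, at 4978, 5013, 2865 and 2825 normalised counts against 368.5, with -3.41 (adjusted p 0.00473) in the authors' deposited table. All 8 fork protection genes had negative values, and the authors' deposited table puts their median at -1.90. The 15 genes of origin recognition and firing had 12 negative values in the authors' deposited table, with -0.95 as their median. Dbf4, the activator of the CDC7 kinase, stood at 2075, 2005, 1765 and 1750 against 5017, and Top1, topoisomerase I, at 8615, 8549, 8826 and 8768 against 18136. Both means lay above every wild-type library, without a call, at 1.40 (adjusted p 0.413) and 1.06 (adjusted p 0.611) in the authors' deposited table. Of 30 mitosis genes, 16 fell and 0 rose, against the same 3.7% and 3.15%. Their median in the authors' deposited table was -2.56, with 28 negative and 2 positive values. The 2 lowest were the spindle kinase Nek2, which fell 15.8-fold, and the mitotic cyclin Ccnb1, which fell 20.6-fold. The positive values were 0.65 for Incenp and 0.07 for Ndc80 in the authors' deposited table, without a call. The difference of this list from the 41 genes was not tested.

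**Figure D4:**
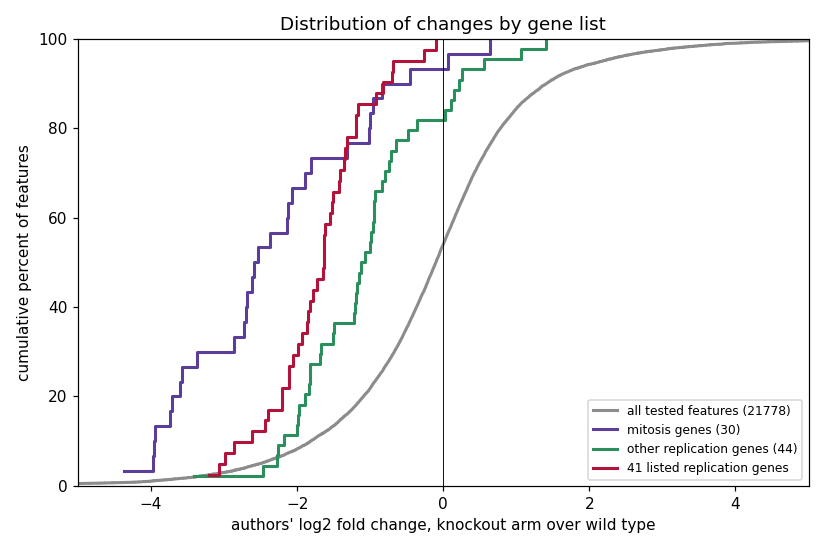
Cumulative percent of features against the log2 fold change that the authors' deposited table gives, for the 41 replication genes, 44 other replication genes, 30 mitosis genes and all 21778 features tested. The curves of the lists lie mostly left of that for all features, and the medians are -1.64, -1.10, -2.56 and -0.10.

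Markers of other cell types differed in direction from list to list. Over all features tested, 3.7% fell and 3.15% rose at an adjusted p under 0.05. Of 10 erythroid markers, 6 fell and 0 rose in the authors' deposited table. The list's summed share was 0.105% to 0.131% of counts in wild type and 0.0368% in the arm labelled knockout. Most of those reads came from Car2, at 36593, 37522, 52655 and 52296 normalised counts against 19730. Car2 was not called, at -1.18 (adjusted p 0.535) in the authors' deposited table. It was higher in libraries 3 and 4, where 8 of the 10 markers were lower. Gata1, the master erythroid factor, stood at 1515, 1470, 1441 and 1415 normalised counts against 45.2, and the membrane protein gene Rhag at 324, 299, 243 and 257 against 1.32, a mean of 1 read. Of 5 megakaryocyte markers 3 fell and 0 rose in the authors' deposited table, and the summed share was 0.0463% to 0.0561% in wild type and 0.00933% in the arm labelled knockout. None of 9 myeloid markers was called, with 5 negative and 4 positive values and -0.02 as their median in the authors' deposited table. Their share was 0.129% and 0.127% in the first pair, 0.0370% and 0.0373% in the second and 0.0649% in the knockout mean. Of 9 lymphoid markers 2 fell, with shares of at most 0.000673% in any wild-type library and 0.000139% in the arm labelled knockout, where Il7r, Pax5 and Cd3e were at 0. Of 6 stromal and endothelial markers 2 fell, with shares of 0.00939% to 0.0127% in wild type and 0.00702% in the arm labelled knockout. Of the other 4, Col1a1, Col1a2 and Cdh5 were 2.39-fold, 1.73-fold and 1.61-fold higher in that arm in the authors' deposited table, without a call, and the median of the 6 was 0.15. The part of these cells in the lower replication genes was not tested.

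The wild-type libraries also differed among themselves. For 36 of the 41 genes both libraries 3 and 4 lay below libraries 1 and 2, against 37.9% of the 10312 features tested with a mean of at least 500 normalised counts. The median log2 difference was -0.36 over the 41 genes and 0.06 over those features. It was farthest from 0 for E2f8 at -0.84, E2f1 at -0.74, Mcm10 at -0.70, and E2f2 and Pold1 at -0.67 each. Gins4, Rpa3 and Rpa1 had 0.06, 0.05 and 0.01, and Prim2 and Rfc4 had -0.02 and -0.04. By role, the medians ran from -0.74 for the E2F factors to 0.01 for RPA. They were -0.59 for the licensing genes with Mcm10 and -0.24 for the MCM ring. The proliferation marker Mki67 stood at 50328 and 49510 normalised counts in libraries 1 and 2 and at 23267 and 22919 in libraries 3 and 4. Its log2 difference of -1.11 was the largest of the 30 mitosis genes. All 30 were lower in libraries 3 and 4, by as little as -0.04, and their median was -0.31. The pairs are not labelled as groups, so this difference was not tested.

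**Figure D5:**
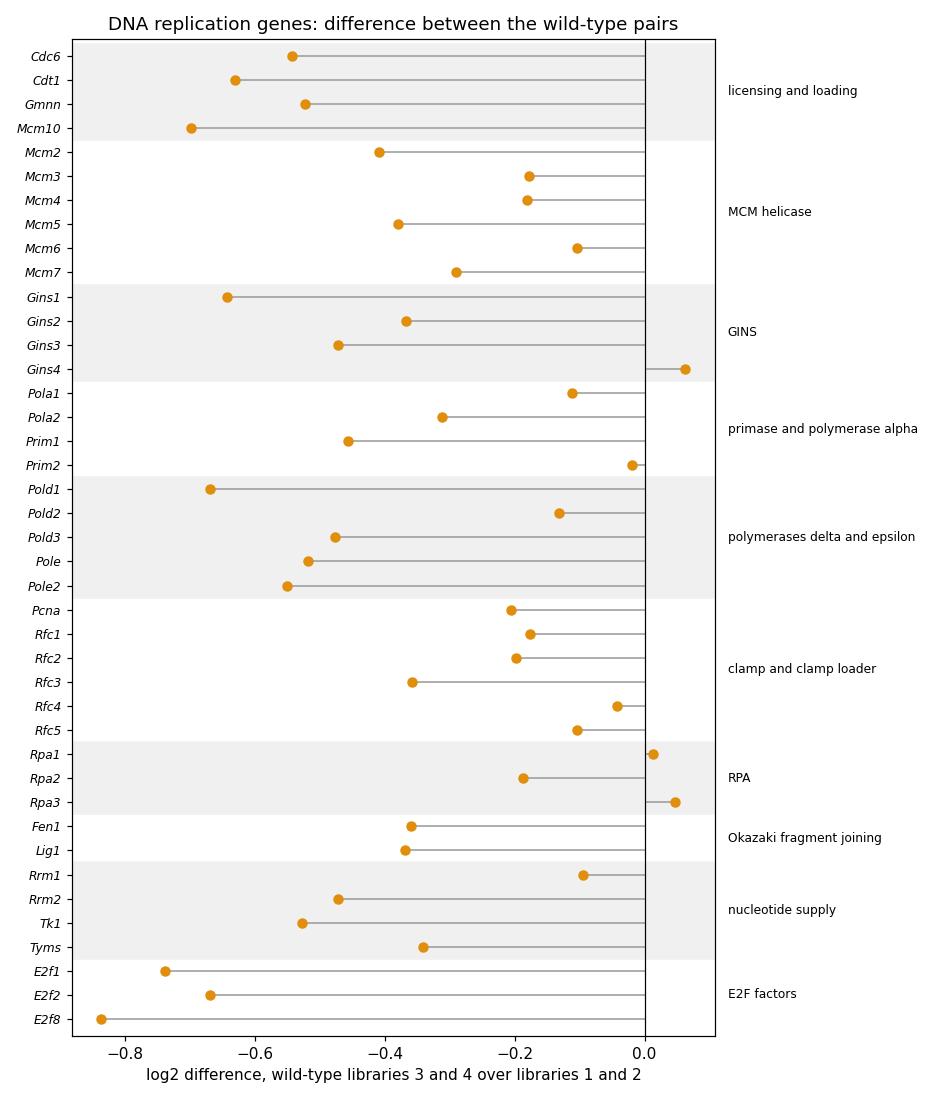
Log2 difference of the mean normalised count of wild-type libraries 3 and 4 over that of libraries 1 and 2, for the 41 replication genes by role. Of the 41 points 38 lie left of 0, from -0.84 for E2f8, and the 3 to the right are Gins4, Rpa3 and Rpa1.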

How the data were processed

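Read counts are whole numbers per feature that the authors deposited for 4 wild-type libraries of polyA-selected RNA (Qiagen RNeasy Micro, TruSeq RNA kit, per the labels). The kit as named does not mark strand. Per the submitters' processing notes, the build is mm9 and a tool is DESeq; the sources used here do not give the aligner or counter. A length-scaled signal deposited by the authors was used only for exon lengths. The log2 fold change and the p-value are those the authors deposited for the knockout arm over wild type; p was read as adjusted. Of the 30 columns, 8 hold per-library values named for the knockout arm, with no sample among those described here, and were not used.

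Size factors by the median of ratios scaled the counts, and the authors' knockout mean was put on that scale with their own log2 offset of 0.40 (11936 features with both means of at least 100). No test between genotypes was run: calls were made here, at a value under 0.05 of the p that the authors deposited. Features sharing positions are named where they touch a member. Reads from bases that both features hold in exons cannot be told apart by strand, whether the features lie on the same or on opposite strands. At these depths 3 counts, the limit that a count of 0 allows, is at most 0.0737 CPM.

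The 41 genes and all other lists were chosen with earlier results of these data known. Named genes were every called member, the lowest and highest of each role, and called or opposite genes of the other lists; the remaining members are given by value, and the stem cell and stromal markers, Mki67 and the repair genes were named after their values were seen. TMM factors (edgeR 4.0.16), library totals, other thresholds and left-out libraries were tried, and the scripts were tested on simulated data. Promoters were taken from RefSeq (GRCm38.p6).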

Additional observations from a re-analysis of the deposited data

How the results depend on the processing

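Of the 41 genes, 1 was called lower at an adjusted p under 0.01 and 9 under 0.1 in the authors' deposited table, against 1.78% and 5.13% of all features tested, and 0 were called higher at either. The 4 called genes other than Tk1 overlap no other feature. Among features with a mean of at least 500 normalised counts, 1.4% were called lower and 2.82% higher. The median log2 fold change was -1.98 under scaling by library totals, which moves the median of all well-counted features by -0.34, and all 41 values were negative under library totals, TMM factors and size factors that include the knockout mean. Against libraries 1 and 2 alone it was -1.75 and against libraries 3 and 4 alone -1.53, and leaving out 1 wild-type library gave -1.70 to -1.61. At least 2-fold lower were 33 to 39 of the 41 over these scalings and libraries, and 28 of the 34 that overlap no other feature. The difference between the wild-type pairs was -0.43 by library totals and -0.37 to -0.35 without 1 library. The summed share in wild type was 0.506% to 0.548% without 1 library. Matches in the 150 bases before the start alone were found in 18.2% of the 33 promoters, against 2.57% of the well-counted genes; this window leaves out the 10 of 20 matches that lie after the start and those that begin farther upstream in Mcm7 and Mcm5. No paired analysis was possible because the labels give replicate numbers to 1 group only. The authors' p-values were not recomputed without single libraries.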

Other observations

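Genes that guard and repair the fork were listed after the replication values were seen. Of 38 listed, 37 were found, of which 6 fell and 0 rose in the authors' deposited table, against 3.7% and 3.15% of all features tested. Their median log2 fold change in that table was -1.40, with 34 negative and 3 positive values. Exo1, a nuclease of mismatch repair and end resection, stood at 2655, 2599, 1750 and 1761 normalised counts in wild-type libraries 1 to 4 and at 180.9 in that arm, a log2 fold change of -3.58 (adjusted p 0.00285) in the authors' deposited table. Of 10 homologous recombination genes 4 fell, with all 10 values negative and -2.23 as their median in the authors' deposited table. They were Rad51ap1, Rad54l, Rad54b and Brca1, at -2.70, -2.68, -2.59 and -2.53 in the authors' deposited table, where Rad54l shares its position in part with Lrrc41 and Rad54b is counted together with Fsbp. Fancd2, of the Fanconi anaemia pathway, fell 6.98-fold (adjusted p 0.0242) in the authors' deposited table, while Fancm of the same pathway stood at 1751, 1722, 1016 and 907 against 1888, or 0.49 (adjusted p 0.896) in that table. The checkpoint kinase gene Chek1 stood at 2113, 2079, 1506 and 1517 against 336.2, with -2.41 (adjusted p 0.0630) in the authors' deposited table.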
